A study of Mus musculus with 100 samples.

Results

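The genes described here are 9 genes of tumor necrosis factor (TNF) signaling and of the NF-kB feedback loop, Tnf, Tnfrsf1a, Tnfrsf1b, Tnfrsf12a, Tnfaip3, Nfkbia, Nfkbiz, Nfkb2 and Relb, followed in whole mouse knee joints before and after a joint injury. They were chosen by name, with earlier results of these data known, and all 9 were among the 17310 genes of the count table. Their shares and medians are thus set beside those of all genes as a description and not as a test. Right knees of 10-week-old mice were loaded once with 10 to 12 N in tibial compression, which tears the anterior cruciate ligament without surgery, and the other knee served as the uninjured contralateral joint. The strains were MRL/MpJ, described in the labels as not susceptible to osteoarthritis, C57BL/6 (the substrain C57BL/6J by the study's methods), described as moderately susceptible, and STR/ort, described as highly susceptible, and no engineered allele distinguishes the groups. By the study's methods the mice were loaded under isoflurane and given the analgesic buprenorphine after it, so in both joints of the injured mice these agents, the loading and the time cannot be told apart when they are set against the 0-day joints taken before injury. The 100 poly(A) RNA-seq libraries form 21 groups of 4 or 5 libraries: uninjured joints of each strain at 0-day, and injured and uninjured contralateral joints of each strain at 1-day, at 1-week and at 2-weeks. The control joint of an injured group is thus the opposite knee of injured mice, not the knee of a mouse that was never loaded. Sex is not given in the sources used here.

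TNF is a cytokine made mainly by macrophages and other immune cells, and it acts through TNFR1 (Tnfrsf1a), which most cells carry, and TNFR2 (Tnfrsf1b), which is mostly found on immune and endothelial cells. Both receptors lead to NF-kB, a family of transcription factors held inactive by inhibitor proteins. NF-kB switches on genes that shut the pathway down again, among them Nfkbia, which encodes the inhibitor IkBa, and Tnfaip3, which encodes the ubiquitin-editing enzyme A20, while Nfkb2 and Relb encode the subunits of the slower non-canonical branch. Tnfrsf12a encodes Fn14, the receptor of the TNF relative TWEAK, and is known as a gene induced by tissue injury and growth factors in muscle, fibroblasts and cartilage.

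Total counts per library ran from 6182016 to 20986027, with a median of 10582592. Levels are CPM, a gene's share of all counts of its library, with library sizes scaled by TMM factors over all 100 libraries, n is 4 or 5 libraries per group, and errors of means are SD. Library counts of Tnf ran from 9 to 75, so its values are the least precise of the 9, against 42 to 270 for Relb, 55 to 502 for Tnfrsf12a and 311 to 1959 for Tnfrsf1a. Marker genes of the joint were present in each group, with 8 of 9 listed cartilage markers in the table and a summed level of 1066 to 6958 CPM per library, and 7 of 7 bone markers with 463 to 3935 CPM. The libraries also held muscle and marrow: 9 fast muscle markers summed to 14592 to 115340 CPM and 10 neutrophil markers to 8530 to 20578 CPM, and none of the listed markers in the table was at 0 in every library of a group. The libraries of 0-day, 1-day and 1-week are experimental batch 1 of the labels (70 libraries) and those of 2-weeks batch 2 (30 libraries), so levels at 2-weeks and at earlier times cannot be told apart from batch. In whole-joint RNA, fewer cells of a type and less RNA per cell cannot be told apart either. The labels give both joints of a replicate number a shared identifier at 2-weeks only. Only right knees were injured, so injured joints of a group are knees of different mice. Which uninjured joints share a mouse with which injured ones at 1-day and 1-week, and whether the 0-day libraries are from separate mice, is not given in the sources used here, and p-values at 0-day may in part measure technical spread.

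Per kilobase of exon, Nfkbia and Tnfrsf1a were the most abundant of the 9 genes, with group means of 30.8 to 57.6 and 28.2 to 65.1 CPM per kb. Tnfrsf1b followed with 10.5 to 22.9 CPM per kb, and Tnf was the lowest with 1.21 to 2.88. Tnfrsf12a spanned the widest range, from 5.45 to 40.0 CPM per kb, and its highest group mean was 7.33 times the lowest. The corresponding ratio was 2.38 for Tnf, 2.31 for Tnfrsf1a, 2.18 for Tnfrsf1b, 2.11 for Nfkbiz, 1.97 for Relb, 1.87 for Nfkbia, 1.81 for Nfkb2 and 1.48 for Tnfaip3. The strain of highest or lowest mean CPM was the same in most settings for several genes. Mean Tnf was highest in MRL/MpJ in 7 of 7 settings of time and joint, and mean Tnfrsf1a, Tnfrsf1b, Tnfaip3, Nfkb2 and Relb were lowest in MRL/MpJ in 7 of 7. Mean Tnfrsf1a and Tnfrsf12a were highest in STR/ort in 7 of 7, and Nfkbiz, Nfkb2 and Relb in 6 of 7. Some of these orders rest on the scaling or on 1 library. For Tnfrsf1a at 0-day, STR/ort and C57BL/6 averaged 88.2 and 86.7 CPM, and the edgeR difference was -0.01, with either sign among the alternatives. For Tnf in injured joints at 1-day, STR/ort against MRL/MpJ turned from -0.05 to 0.05 with RUVg, a removal of unwanted variation based on housekeeping genes, and also without replicate 3 of MRL/MpJ (0.05) or replicate 4 of STR/ort (0.02). For Relb at 0-day, C57BL/6 against MRL/MpJ turned from 0.21 to -0.02 with RUVg. For Tnfaip3 in injured joints at 1-week, STR/ort against MRL/MpJ turned from 0.01 to -0.13 with scaling by 25 housekeeping genes, and was also below 0 when any 1 of 4 of the libraries was left out. Ranked by mean over the 21 groups, neighboring groups overlapped in their libraries at all 20 steps for 7 of the genes. For Tnfrsf1b and Nfkbiz 1 step each was free of overlap, so the ranks themselves are loose. The same count was not made over all genes, so it marks no trait of these 9.

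At 1-day after injury Tnfrsf12a rose in all 3 strains, and Tnf rose in STR/ort. At 1-week Tnfrsf12a was higher in injured joints of STR/ort, and at 2-weeks none of the 9 genes was called in any strain. The word called is used here for an adjusted p below 0.05 in edgeR's quasi-likelihood test, with Benjamini-Hochberg adjustment over all 17310 genes, together with a change of more than 1.5-fold. At 1-day this held for 1 of the 9 genes in MRL/MpJ, where 2.02% of all genes were called, for 1 in C57BL/6 (5.6% of all genes) and for 2 in STR/ort (4.31%). All 4 of these calls were increases. By adjusted p alone, without the fold limit, 4 genes passed in MRL/MpJ, 7 in C57BL/6 (6 higher and 1 lower) and 6 in STR/ort, against 4.27%, 19% and 10.1% of all genes. The genes that passed by adjusted p in all 3 strains were Tnfrsf12a, Tnfrsf1a, Tnfrsf1b and Relb. At 1-day the median log2 change of the 9 genes was 0.28 in MRL/MpJ, 0.31 in C57BL/6 and 0.34 in STR/ort, and that of all genes lay between -0.02 and 0.01.

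At 1-week, 0 of the 9 genes were called in MRL/MpJ (3.13% of all genes), 0 in C57BL/6 (5.82%) and 1 in STR/ort (9.21%). By adjusted p alone 3 passed in STR/ort, Tnfrsf12a, Relb and Nfkbiz, and 0 in the other strains. With the replicate number as a block, Nfkbiz in STR/ort no longer passed (0.26, adjusted p = 0.0568) and Tnfrsf1a in C57BL/6 did (0.29, adjusted p = 0.0067). By adjusted p alone and without the block, the shares of all genes were 21.9% in STR/ort, 4.7% in MRL/MpJ and 11.4% in C57BL/6. At 2-weeks 0 were called in MRL/MpJ, C57BL/6 and STR/ort, against 1.16%, 2.95% and 4.66% of all genes. Over these 27 tests at 2-weeks, edgeR gave 7 with an unadjusted p below 0.05, and DESeq2 called 0. By adjusted p alone 3 genes passed at 2-weeks, all in STR/ort (13.6% of all genes), namely Tnfrsf1a, Relb and Nfkbiz, and 0 passed in MRL/MpJ (1.92%) and C57BL/6 (8%). At these later times the calls among the 9 genes were too few to set apart from the shares of all genes.

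**Figure D1:**
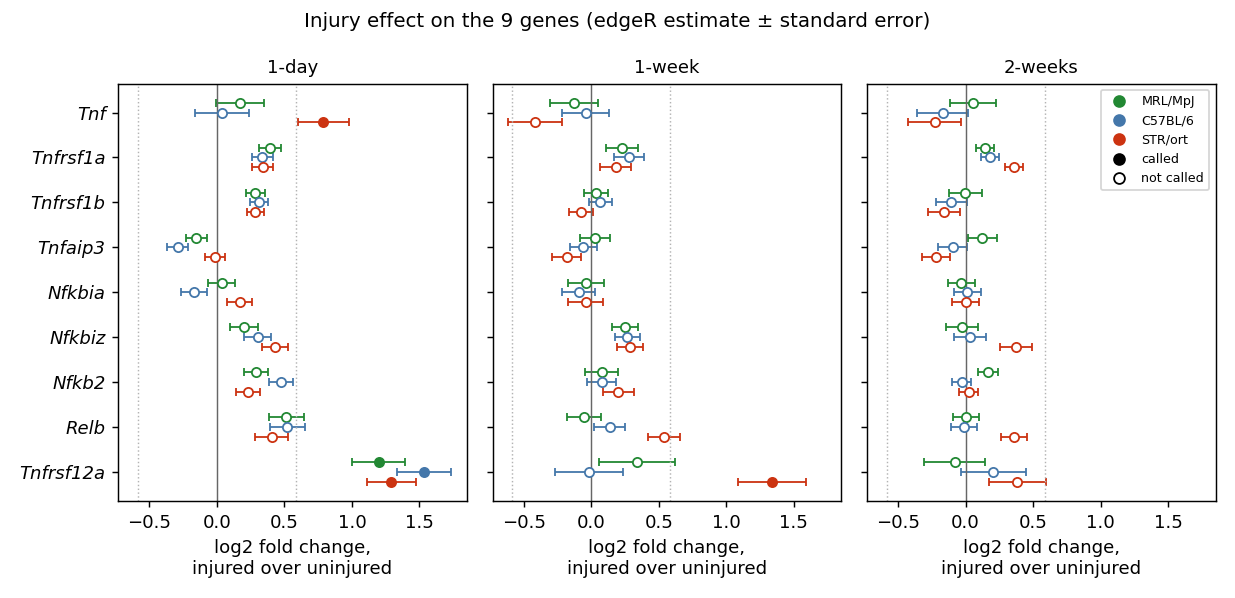
Log2 fold change of injured over uninjured contralateral joints (x axis) for each of the 9 genes (y axis) in panels for the 3 times after injury, with the edgeR estimate as a circle, its standard error as a bar and strains as colors; filled circles are called, dotted lines mark a 1.5-fold change. The filled circles are Tnfrsf12a in all 3 strains and Tnf in STR/ort at 1-day, and Tnfrsf12a in STR/ort at 1-week.

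Whether injury acted differently in 2 strains was tested by the interaction of strain and injury, with 3 strain pairs at each of 3 times. Of 81 such tests over the 9 genes, edgeR called 0, 14 had an unadjusted p below 0.05, and the smallest adjusted p was 0.0716. That value belonged to Tnfrsf12a at 1-week, whose injury effect was larger in STR/ort than in C57BL/6 by 1.36 ± 0.36 on the log2 scale (± SE). DESeq2 called this 1 test of the 81, with a difference of 1.40 and an adjusted p of 0.0179. With the replicate number as a block edgeR called it as well (1.37, adjusted p = 0.00636). In 1 fit of all libraries edgeR called it (1.39, adjusted p = 0.00884) and Relb at 1-week, STR/ort against MRL/MpJ (0.63, adjusted p = 0.026). Among all genes, interactions were called for 0.162% (STR/ort against MRL/MpJ), 2.66% (STR/ort against C57BL/6) and 0.318% (C57BL/6 against MRL/MpJ) at 1-day. The shares in the same order were 0.884%, 0.491% and 0% at 1-week and 0.451%, 0.0462% and 0% at 2-weeks. For Tnf at 1-day, which was called in STR/ort and not in the other strains, the difference of injury effects was 0.75 ± 0.27 against C57BL/6 (adjusted p = 0.135) and 0.62 ± 0.26 against MRL/MpJ (adjusted p = 0.621), so a difference between strains in this response was not shown.

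Calls between strains were more frequent than calls after injury, as they were among all genes in most comparisons. At 0-day, STR/ort differed from MRL/MpJ in 4 of the 9 genes (Nfkbia, Nfkbiz and Tnfrsf12a higher, Tnf lower), where 14.8% of all genes were called. STR/ort differed from C57BL/6 in 3 (Nfkbia, Nfkbiz and Tnfrsf12a higher), against 13.8% of all genes, and C57BL/6 from MRL/MpJ in 1 (Tnfrsf1b higher), against 15.9%. In injured joints, STR/ort exceeded MRL/MpJ in 4 genes at 1-day (20.3% of all genes), differed in 5 at 1-week (4 higher and Tnf lower, 29.5%) and in 3 at 2-weeks (2 higher and Tnf lower, 18.9%). Injured STR/ort joints exceeded injured C57BL/6 joints in 3 genes at 1-day (12.4%), 3 at 1-week (25.1%) and 1 at 2-weeks (10.4%). Between injured C57BL/6 and MRL/MpJ joints 2 differed at 1-day (16.3%), 0 at 1-week (9.47%) and 1 at 2-weeks (11.5%). Over injured joints, 22 of 81 tests were called, 19 of them for the strain named first being higher.

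Uninjured contralateral joints gave 14 calls in 81 tests. STR/ort differed from MRL/MpJ in 4 genes at 1-day (22.6% of all genes), 2 at 1-week (24.4%) and 2 at 2-weeks (13.8%), from C57BL/6 in 1 gene at 1-day (10.5%), 1 at 1-week (22.2%) and 1 at 2-weeks (9.78%), and C57BL/6 from MRL/MpJ in 2 at 1-day (14.8%), 0 at 1-week (8.53%) and 1 at 2-weeks (9.83%). The comparisons of STR/ort and of C57BL/6 with MRL/MpJ share the MRL/MpJ libraries, and the other pairs share libraries in the same way. The members that carried these calls were not the same throughout. In uninjured joints at 1-day, Tnf was lower in STR/ort than in MRL/MpJ, and Tnfrsf1a, Tnfrsf1b and Nfkbia were higher. Against C57BL/6 the direction of Tnf was the other in injured joints at 1-day, where it was called higher in STR/ort (0.69). Tnfrsf12a was called in STR/ort over C57BL/6 in 6 of 7 settings of time and joint, 0-day and injured joints included.

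**Figure D2:**
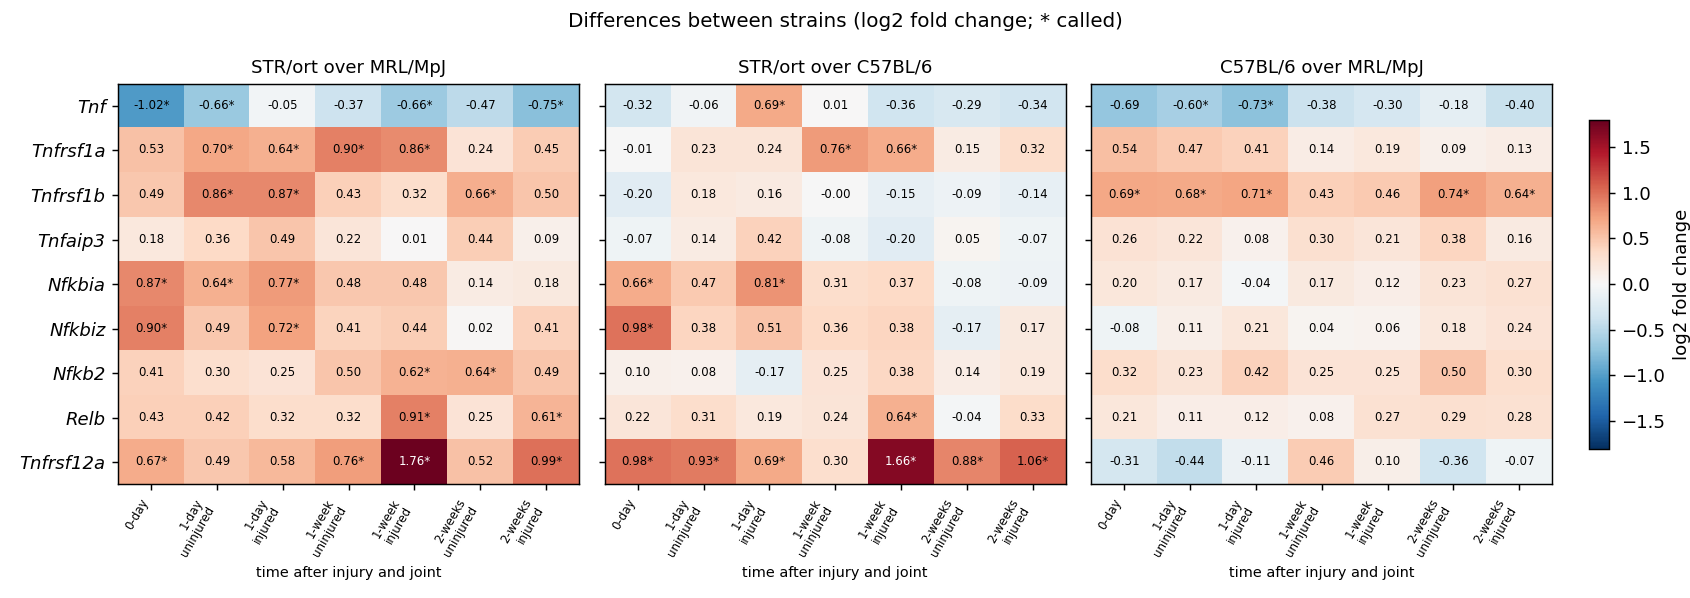
Log2 fold change between strains for each gene (y axis) in each setting of time and joint (x axis), as numbers and as color from blue (lower in the strain named first) to red (higher), with an asterisk where the gene was called. Tnf is blue against MRL/MpJ, Tnfrsf12a is red in STR/ort over C57BL/6 and reaches 1.76 over MRL/MpJ in injured joints at 1-week, and Tnfaip3 carries no asterisk.

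Within experimental batch 1, joints could also be compared over time. Uninjured contralateral joints at 1-day were set against 0-day joints with 0 calls among the 9 genes in MRL/MpJ (0.0924% of all genes), 0 in C57BL/6 (0.0693%) and 1 in STR/ort (9.92%), where Nfkbiz fell. At 1-week the numbers were 0 in MRL/MpJ (0%), 1 in C57BL/6 (5.72%), where Tnfrsf12a was higher, and 0 in STR/ort (13.6%). The 1-day and 1-week comparisons share the 0-day libraries. In injured joints from 1-day to 1-week, 0 of the 9 genes were called in MRL/MpJ (3.11%), 0 in C57BL/6 (4.47%) and 3 in STR/ort (13.9%), where Tnfrsf12a rose and Tnf and Tnfrsf1b fell.

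Tnf (chr17:35199381-35202007, minus strand, GRCm38) encodes the ligand. At 1-day it stood at 4.01, 4.74, 3.72, 3.0 and 3.52 CPM in the 5 injured STR/ort joints and at 2.41, 1.89, 2.24, 1.55 and 2.55 CPM in the 5 uninjured ones. Each injured STR/ort joint was above each uninjured one, and the log2 change was 0.79 ± 0.19 (1.73-fold, adjusted p = 0.00469, edgeR), which remained called with any 1 of the 10 libraries left out, at 0.71 to 0.87. In MRL/MpJ the injured joints averaged 3.91 ± 0.64 and the uninjured 3.52 ± 0.63 CPM, and in C57BL/6 2.35 ± 0.58 and 2.27 ± 0.66, with log2 changes of 0.17 and 0.04 that did not pass. From 1-day to 1-week Tnf fell in injured STR/ort joints by 0.82 ± 0.20 on the log2 scale (adjusted p = 0.00093), to 2.32, 2.48, 2.5, 1.73 and 1.69 CPM, and these values lay below all 5 of 1-day. The sum of the macrophage markers in STR/ort was 970 to 1068 CPM in injured and 936 to 1037 CPM in uninjured joints at 1-day, with 2 of 10 called higher. Of 10 neutrophil markers 0 were called, and of 9 fast muscle markers 6 were called lower, with sums of 17220 to 43561 CPM in injured and 31954 to 55474 CPM in uninjured joints. Marker sums also differed between injured STR/ort joints of 1-day and 1-week, over which Tnf fell. In that order they were 970 to 1068 and 819 to 923 CPM for macrophages, and 183 to 296 and 61.8 to 152 for B cells. For T cells they were 30.2 to 34.0 and 20.9 to 29.7, for bone 2638 to 3418 and 2238 to 3054, and for endothelial cells 350 to 395 and 415 to 528. The part of these marker lists in the Tnf changes was not tested.

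The strain with most Tnf was MRL/MpJ. At 0-day the 4 MRL/MpJ joints held 3.69, 5.58, 3.96 and 2.59 CPM, the 4 C57BL/6 joints 2.26, 1.69, 2.37 and 3.44, and the 4 STR/ort joints 2.33, 3.08, 0.94 and 1.60. The MRL/MpJ and STR/ort values overlapped, and the log2 difference of -1.02 ± 0.31 (adjusted p = 0.0172) was lost without replicate 2 of MRL/MpJ (-0.79, adjusted p = 0.0934) or replicate 3 of STR/ort (-0.77, adjusted p = 0.0595). Tnf was also lower in STR/ort than in MRL/MpJ in uninjured joints at 1-day (-0.66 ± 0.19), in injured joints at 1-week (-0.66 ± 0.18) and in injured joints at 2-weeks (-0.75 ± 0.18). The first of these fell just under 1.5-fold without replicate 2 of MRL/MpJ or replicate 4 of STR/ort (-0.58 each), the next without replicate 1 of MRL/MpJ or replicate 5 of STR/ort (-0.58 each), and the last remained called with any library left out. In injured joints at 1-day STR/ort and MRL/MpJ had nearly the same mean, 3.8 ± 0.64 and 3.91 ± 0.64 CPM, and a log2 difference of -0.05 ± 0.17. C57BL/6 was lower than MRL/MpJ at 1-day, with log2 differences of -0.73 ± 0.19 in injured joints (adjusted p = 0.00266) and of -0.60 ± 0.19 in uninjured joints (adjusted p = 0.0132), the second of which fell under 1.5-fold in 6 of 10 leave-outs (-0.51 to -0.58). Injured STR/ort joints exceeded injured C57BL/6 joints by 0.69 ± 0.19 (adjusted p = 0.00611), with values that overlapped, and by 0.57 when libraries were scaled by 25 housekeeping genes (housekeeping scaling), under the fold limit. With RUVg the differences in uninjured joints at 1-day were also under 1.5-fold, at -0.58 for STR/ort and -0.50 for C57BL/6 against MRL/MpJ. At 0-day C57BL/6 against MRL/MpJ was not called in the reported test. It was called in a fit of the compared groups (-0.70, adjusted p = 0.0393) and in 1 fit of all libraries (-0.74, adjusted p = 0.00751). It was also called without replicate 4 of MRL/MpJ (-0.83, adjusted p = 0.0464) or replicate 4 of C57BL/6 (-0.895, adjusted p = 0.0344). T cell markers were also high in MRL/MpJ: 7 of them summed to 67.6 to 77.3 CPM at 0-day, against 39.0 to 43.6 in C57BL/6 and 28.3 to 32.9 in STR/ort. In STR/ort against MRL/MpJ, 4 of 7 were called lower at 0-day, 5 in uninjured joints at 1-day, 7 in injured joints at 1-week and 3 in injured joints at 2-weeks. In C57BL/6 against MRL/MpJ 2 of 7 were called lower at 1-day in injured and 2 in uninjured joints. Macrophage markers had another order of strains. Their sum at 0-day was 892 to 1015 CPM in MRL/MpJ, 1051 to 1199 in C57BL/6 and 607 to 799 in STR/ort, and in C57BL/6 over MRL/MpJ, where Tnf was lower at 1-day, 9 of 10 were called higher in injured and 5 in uninjured joints. All 6 erythroid markers were called lower in STR/ort against MRL/MpJ at 0-day, in uninjured joints at 1-day and in injured joints at 1-week and 2-weeks. The part of these lists in the Tnf differences was not tested.

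**Figure D3:**
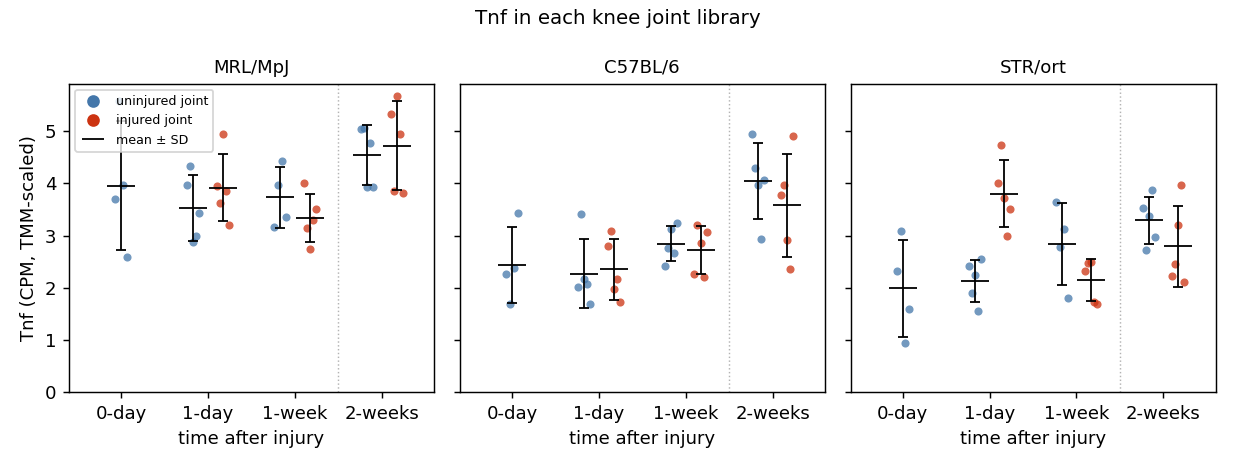
Tnf level in CPM (y axis) in each library by time after injury (x axis) and strain (panels), with uninjured joints in blue, injured joints in red and the mean and SD in black; the dotted line separates the 2 experimental batches. At 1-day the 5 injured STR/ort joints, from 3.0 to 4.74 CPM, are above the 5 uninjured ones, from 1.55 to 2.55 CPM.

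The receptors Tnfrsf1a (chr6:125349362-125362484, plus strand) and Tnfrsf1b (chr4:145213463-145246870, minus strand) moved together at 1-day, by less than 1.5-fold. Tnfrsf1a was 75.6, 87.7, 76.0, 77.5 and 78.3 CPM in injured against 59.6, 58.7, 58.9, 62.7 and 64.3 in uninjured MRL/MpJ joints. In C57BL/6 it was 118, 88.3, 97.1, 124 and 90.5 against 84.2, 76.2, 81.3, 88.1 and 81.1, and in STR/ort 111, 131, 128, 116 and 130 against 95.1, 109, 93.0, 85.8 and 96.3. In each strain the lowest injured joint was above the highest uninjured one, with log2 differences of 0.40 ± 0.08, 0.33 ± 0.08 and 0.34 ± 0.08 in MRL/MpJ, C57BL/6 and STR/ort (adjusted p = 0.00192, 0.00238 and 0.00342). For Tnfrsf1b the differences were 0.28 ± 0.07, 0.31 ± 0.07 and 0.29 ± 0.07 (adjusted p = 0.011, 0.00101 and 0.00358). These are differences that passed on adjusted p and not on size. In the same comparisons 2, 6 and 2 of 10 macrophage markers and 3, 4 and 2 of 7 synovial fibroblast markers were called higher, and their part in the receptor values was not tested. At 2-weeks Tnfrsf1a passed in STR/ort alone among the strains (0.36 ± 0.07, adjusted p = 2e-04, 108 to 138 CPM against 89.2 to 106), while the interaction with strain did not pass against MRL/MpJ (0.21 ± 0.09, adjusted p = 0.456) or C57BL/6 (0.18 ± 0.09, adjusted p = 1). In these STR/ort joints at 2-weeks 5 of 7 synovial fibroblast and 3 of 8 cartilage markers were called higher after injury, and their part was not tested.

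Both receptors were lowest in MRL/MpJ. At 0-day Tnfrsf1a was 53.6 to 69.5 CPM in MRL/MpJ, 82.6 to 90.1 in C57BL/6 and 85.2 to 91.5 in STR/ort. By 1-week its level in STR/ort was 108 to 164 CPM in injured and 105 to 144 in uninjured joints, above all joints of the other strains, which ran up to 97.7 CPM. The log2 difference from MRL/MpJ was 0.86 ± 0.11 in injured and 0.90 ± 0.12 in uninjured joints, and from C57BL/6 0.66 ± 0.11 and 0.76 ± 0.12, with adjusted p of 1.01e-05 or less. With housekeeping scaling the excess in injured joints over C57BL/6 was 0.49, and at 1-day that over MRL/MpJ, called at 0.64, was 0.46, both under 1.5-fold. Uninjured STR/ort joints at 1-week were above 0-day by 0.47 ± 0.10 (adjusted p = 0.00026), under the fold limit. Synovial fibroblast markers stood high in the same joints: 7 markers summed to 11043 to 14880 CPM in injured and 8687 to 22584 CPM in uninjured STR/ort joints at 1-week, against 4189 to 4837 and 1931 to 2567 CPM in C57BL/6, with 5 of 7 called higher in injured STR/ort over C57BL/6 joints. Their part in the Tnfrsf1a difference was not tested. Tnfrsf1b had its lowest strain mean in MRL/MpJ. At 0-day it was 40.0, 41.5, 45.3 and 38.8 CPM in MRL/MpJ and 66.8, 67.6, 61.4 and 63.1 in C57BL/6, with no overlap and a log2 difference of 0.69 ± 0.09 (adjusted p = 7.9e-06). The excess of C57BL/6 over MRL/MpJ was called in 5 of the 7 settings, at 0.64 to 0.74, and that of STR/ort over MRL/MpJ in 3, at 0.66 to 0.87. Immune cell markers also differed from MRL/MpJ. In C57BL/6 over MRL/MpJ, 6 of 10 macrophage and 6 of 6 B cell markers were called higher at 0-day, and 9 of 10 and 3 of 6 in injured joints at 1-day, while in STR/ort over MRL/MpJ 3 of 10 and 6 of 6 were called higher in injured joints at 1-day. Of 7 T cell markers 2, 2 and 3 were called lower in these 3 comparisons, and of 10 neutrophil markers 0, 2 and 0. At 2-weeks, C57BL/6 over MRL/MpJ had 1 of 10 macrophage markers called higher in injured and 2 in uninjured joints, 6 of 6 B cell markers higher in both, and of 7 T cell markers 1 lower in injured joints and 1 higher and 1 lower in uninjured ones. Their part in the Tnfrsf1b differences was not tested. At 2-weeks the call for injured C57BL/6 joints rested on replicate 4 of MRL/MpJ (0.52 without it), and that for uninjured STR/ort joints on replicate 4 of STR/ort (0.55 without it). In injured STR/ort joints Tnfrsf1b fell from 77.0 to 98.6 CPM at 1-day to 54.4 to 61.5 CPM at 1-week, by 0.61 ± 0.07 on the log2 scale (adjusted p = 6.81e-10). That fold sat at the limit: it was under 1.5 without replicate 1 or 2 of 1-day (-0.56 and -0.57) or replicate 1 of 1-week (-0.58), and with DESeq2 (-0.58), RLE size factors, another scaling (-0.58), housekeeping scaling (-0.51) and RUVg (-0.58). In the same joints of 1-day and 1-week, B cell markers summed to 183 to 296 and 61.8 to 152 CPM, and T cell markers to 30.2 to 34.0 and 20.9 to 29.7. Macrophage markers summed to 970 to 1068 and 819 to 923 CPM, and endothelial markers to 350 to 395 and 415 to 528. Their part in the fall of Tnfrsf1b was not tested.

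Tnfrsf12a (chr17:23675445-23677468, minus strand), the receptor of TWEAK, had 16 calls in 48 comparisons, the most of the 9 genes. At 1-day it was 12.5, 22.6, 15.2, 16.1 and 23.5 CPM in injured and 8.81, 10.1, 7.43, 6.24 and 7.45 in uninjured MRL/MpJ joints. In C57BL/6 it was 19.2, 9.40, 15.4, 24.4 and 13.5 in injured and 6.96, 5.06, 5.95, 5.08 and 5.86 in uninjured joints. In STR/ort it was 35.0, 22.8, 22.4, 25.7 and 28.1 in injured and 11.6, 10.1, 9.53, 12.4 and 10.4 in uninjured joints. In each strain all 5 injured joints were above all 5 uninjured ones. The gene rose 2.29-fold in MRL/MpJ (log2 1.2 ± 0.19, adjusted p = 0.000143), 2.89-fold in C57BL/6 (1.53 ± 0.20, adjusted p = 1.31e-06) and 2.45-fold in STR/ort (1.29 ± 0.18, adjusted p = 8.22e-06). The interaction test passed for no pair of strains, with differences of the injury effect of 0.33 ± 0.28 between C57BL/6 and MRL/MpJ (adjusted p = 0.688), -0.24 ± 0.27 between STR/ort and C57BL/6 (adjusted p = 0.7) and 0.09 ± 0.27 between STR/ort and MRL/MpJ (adjusted p = 1). Synovial fibroblast markers were called higher in injured joints in 3 of 7 genes in MRL/MpJ, 4 in C57BL/6 and 2 in STR/ort at 1-day, and fast muscle markers lower in 0, 1 and 6 of 9. Their part was not tested.

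At 1-week Tnfrsf12a had its highest levels in injured STR/ort joints, with 58.3, 47.0, 32.8, 31.7 and 42.1 CPM against 18.8, 24.5, 9.12 and 15 in the 4 uninjured joints. The groups did not overlap, and the change was 2.53-fold (log2 1.34 ± 0.25, adjusted p = 0.000265), at 1.12 to 1.57 with any library left out. In MRL/MpJ the injured joints ran from 10.1 to 15.6 and the uninjured from 9.17 to 10.7 CPM, a log2 difference of 0.34 ± 0.28 that did not pass. In C57BL/6 the injured joints ran from 7.27 to 19.2 CPM and the uninjured were 10.9, 25.7, 11, 10.3 and 11.8, a log2 difference of -0.02 ± 0.25. Replicate 2 of the uninjured C57BL/6 joints stood far above the other 4 of its group, and without it the difference was 0.30 (adjusted p = 0.52). The larger injury effect in STR/ort than in C57BL/6 (1.36 ± 0.36) passed without replicate 5 of injured C57BL/6 joints (1.56, adjusted p = 0.0445) or replicate 2 of uninjured STR/ort joints (1.59, adjusted p = 0.0368), and with the replicate number as a block (1.37, adjusted p = 0.00636). Against MRL/MpJ the difference was 1.00 ± 0.38 (adjusted p = 0.216). At 2-weeks the injury differences were -0.08 ± 0.23, 0.21 ± 0.24 and 0.38 ± 0.21 in MRL/MpJ, C57BL/6 and STR/ort, and none passed. Injured STR/ort joints at 2-weeks had 22.8, 21.1, 26, 22.8 and 31.2 CPM and uninjured ones 21, 15.2, 21.9, 15.5 and 22.1, so the groups overlapped.

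**Figure D4:**
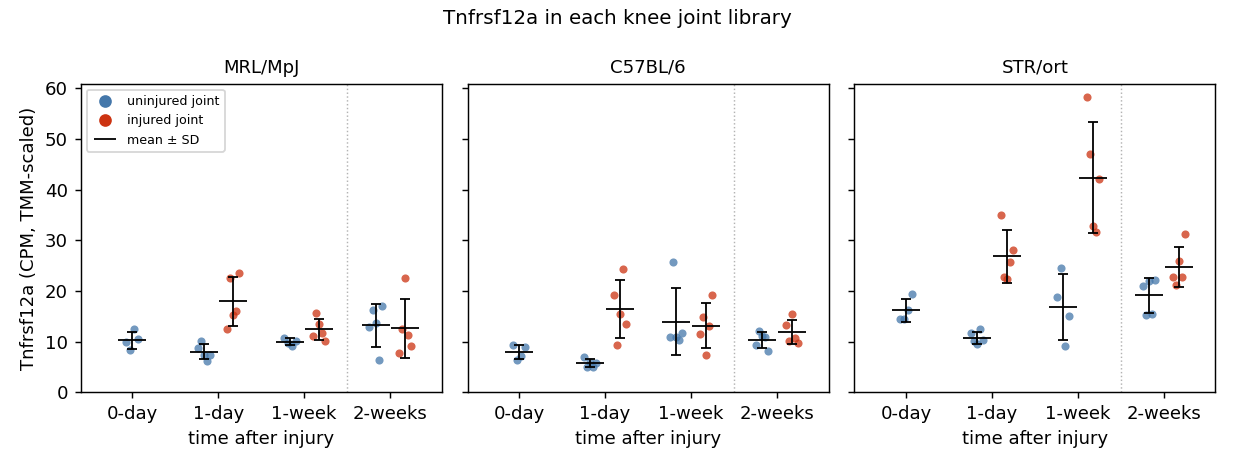
Tnfrsf12a level in CPM (y axis) in each library by time after injury (x axis) and strain (panels), with uninjured joints in blue, injured joints in red and the mean and SD in black; the dotted line separates the 2 experimental batches. Injured joints exceed uninjured ones at 1-day in every strain, and at 1-week the 5 injured STR/ort joints sit between 31.7 and 58.3 CPM, above every other joint of that time.

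Beside these STR/ort values at 1-week, 9 fast muscle markers summed to 14592 to 32026 CPM in injured and 29322 to 56096 CPM in uninjured joints, with 7 of 9 called lower, and 7 synovial fibroblast markers summed to 11043 to 14880 and 8687 to 22584 CPM, with 2 of 7 called higher. In MRL/MpJ and C57BL/6, where Tnfrsf12a was not called at 1-week, 6 of 7 synovial fibroblast markers were called higher in each. After injury in STR/ort at 1-week 5 of 7 bone and 4 of 10 neutrophil markers were also called lower. The part of these marker lists in the Tnfrsf12a result was not tested. Mean levels over all 21 groups, in order, were 42.4 ± 11 CPM in injured STR/ort joints at 1-week, 26.8 ± 5.1 at 1-day and 24.8 ± 4.0 at 2-weeks, then 19.1 ± 3.5 in uninjured STR/ort joints at 2-weeks, 18.0 ± 4.8 in injured MRL/MpJ joints at 1-day, 16.9 ± 6.5 in uninjured STR/ort joints at 1-week, 16.4 ± 5.7 in injured C57BL/6 joints at 1-day and 16.2 ± 2.3 in STR/ort joints at 0-day. The other 13 groups averaged 5.78 to 13.9 CPM, the lowest being uninjured C57BL/6 joints at 1-day. At each step of this order the libraries of neighboring groups overlapped.

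Tnfrsf12a also differed between strains without injury. At 0-day the 4 STR/ort joints had 14.6, 14.5, 16.3 and 19.4 CPM, above all of MRL/MpJ (9.88, 8.37, 12.4 and 10.5) and C57BL/6 (9.32, 6.43, 7.21 and 8.93). The log2 excess was 0.67 ± 0.15 over MRL/MpJ (adjusted p = 0.00147, and 0.58 without replicate 4 of STR/ort, which is under 1.5-fold) and 0.98 ± 0.14 over C57BL/6 (adjusted p = 3.79e-05). The 9 immediate-early genes described with Nfkbiz were high in the same libraries, at a sum of 1122 to 2095 CPM against at most 224 in the other strains. Over MRL/MpJ 4 of 7 synovial fibroblast markers were called higher and 1 of 9 fast muscle markers lower. Over C57BL/6 2 of 7 synovial fibroblast markers were called higher and 1 lower, and 8 of 9 fast muscle markers higher. The part of these lists was not tested. Injured STR/ort joints at 1-week exceeded those of MRL/MpJ by 1.76 ± 0.24 and of C57BL/6 by 1.66 ± 0.24, and at 2-weeks by 0.99 ± 0.22 and 1.06 ± 0.22, calls that no left-out library ended. Over C57BL/6 the excess in injured joints at 1-day, 0.69 ± 0.18, fell under 1.5-fold without replicate 2 of C57BL/6 (0.55) or replicate 1 of STR/ort (0.58), and with housekeeping scaling (0.58). Over MRL/MpJ the excess in these joints was not called in the reported test. It was called with filterByExpr (0.59), without replicate 2 or 5 of MRL/MpJ (0.69 and 0.71) and without replicate 2, 3 or 4 of STR/ort (0.62, 0.63 and 0.59). In uninjured joints the excess over C57BL/6 was 0.93 ± 0.21 at 1-day, 0.88 ± 0.23 at 2-weeks and 0.30 ± 0.27 at 1-week, the last becoming 0.62 with an adjusted p of 0.0411 when replicate 2 of C57BL/6 was left out. The same library carried the call for uninjured C57BL/6 joints at 1-week over 0-day (0.75 ± 0.25, adjusted p = 0.0317, and 0.44 with an adjusted p of 0.26 without it). That call was also lost without replicates 2, 3 or 4 of 0-day (0.65, 0.70 and 0.81, adjusted p = 0.11, 0.078 and 0.0523). Marker sums differed between the same groups. From 0-day to 1-week they were 2302 to 6665 and 1136 to 3186 CPM for cartilage, and 2234 to 3098 and 1312 to 1872 for bone. For synovial fibroblasts they were 3441 to 5236 and 1931 to 2567, and for fast muscle 34571 to 55604 and 43404 to 75260. Their part was not tested. The excess of uninjured STR/ort over MRL/MpJ joints at 1-week (0.76 ± 0.29, adjusted p = 0.0343) was lost in 5 of 8 leave-outs, with adjusted p up to 0.169, and with housekeeping scaling (0.62, adjusted p = 0.0831). From 1-day to 1-week, Tnfrsf12a rose in injured STR/ort joints by 0.65 ± 0.20 (adjusted p = 0.00678), or 0.54 without replicate 1 of 1-week, under the fold limit, and 0.47 with RUVg (adjusted p = 0.07).

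Promoter sequence is shown for Nfkbia and Nfkb2, feedback and subunit genes with NF-kB-like motifs close to the start, and for Tnfrsf12a, the gene with the largest change after injury, which has none. The 250 bases before each transcription start are from RefSeq on GRCm38.p6, 5' to 3' on the gene's strand, and capitals mark matches to the kappaB motif, the letters GGGA, then any 4 bases, then CC, searched on both strands over 300 bases that also include the 50 bases after the start.
Nfkbia, chr12:55492648-55492897, minus strand: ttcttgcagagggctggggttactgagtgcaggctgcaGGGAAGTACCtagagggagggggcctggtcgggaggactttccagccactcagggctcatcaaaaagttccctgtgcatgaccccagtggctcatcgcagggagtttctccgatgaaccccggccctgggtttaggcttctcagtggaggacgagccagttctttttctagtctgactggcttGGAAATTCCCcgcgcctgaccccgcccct
Nfkb2, chr19:46304487-46304736, plus strand: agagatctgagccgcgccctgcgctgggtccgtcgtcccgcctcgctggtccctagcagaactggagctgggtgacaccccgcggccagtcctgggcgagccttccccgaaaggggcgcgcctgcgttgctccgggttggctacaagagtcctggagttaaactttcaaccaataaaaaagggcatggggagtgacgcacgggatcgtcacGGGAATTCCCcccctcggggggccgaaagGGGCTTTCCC
Tnfrsf12a, chr17:23677450-23677699, minus strand: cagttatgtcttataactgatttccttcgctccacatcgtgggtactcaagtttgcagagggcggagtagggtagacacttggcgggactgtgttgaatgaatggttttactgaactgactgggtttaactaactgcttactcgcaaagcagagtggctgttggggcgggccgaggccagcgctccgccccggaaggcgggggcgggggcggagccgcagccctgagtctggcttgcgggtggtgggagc
With the base before the start counted as -1, the Nfkbia matches begin at -212 (GGGAAGTACC) and -29 (GGAAATTCCC, a match on the other strand), and those of Nfkb2 at -39 (GGGAATTCCC, a match on both strands) and -10 (GGGCTTTCCC, on the other strand). The Nfkb2 window shown is the most upstream of its 3 entries, each of which held 2 matches. Promoters of 7 of the 9 genes were in the RefSeq table, 10 in all, with 3 of Nfkb2 and 2 of Tnfaip3. A match was held by 7 of the 10, which belong to 4 genes, Tnf, Tnfaip3, Nfkbia and Nfkb2. Windows 2 and 3 of Nfkb2 overlap, and 1 match is counted in both, at 10 and at -225. Nfkbiz and Relb had no entry. Of 32851 mouse promoters of the same length 20.7% held at least 1 match and 3.66% held 2 or more. The Tnf window held its match at 29, after the start, and the TATA box letters TATAAA at -29, which 8.32% of the promoters hold. A match is a string of letters and not a measured binding site, and the lack of one in the Tnfrsf12a window says only that these letters are not there.

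Nfkbia and Nfkbiz differed between strains, and Tnfaip3 was not called. Tnfaip3 (chr10:19000910-19015657, minus strand) was called in 0 of 48 comparisons, and its group means ran from 14.3 ± 1.4 CPM in injured MRL/MpJ joints at 1-day to 21.1 ± 3.4 in uninjured STR/ort joints at 2-weeks. In C57BL/6 at 1-day it was 15.4, 14.7, 13.9, 15.1 and 15.2 CPM in injured and 18.0, 17.0, 18.9, 18.4 and 18.6 in uninjured joints, each injured joint being below each uninjured one. The log2 difference of -0.29 ± 0.08 passed on adjusted p (0.00754) and not on size, and it was the only 1 of the 17 differences passing at 1-day that was negative. Nfkbia (chr12:55489410-55492647, minus strand) did not pass after injury in any strain or time, with log2 differences of -0.17 to 0.17. At 0-day it was 71.4, 76.3, 102 and 114 CPM in STR/ort, 59.0, 53.0, 56.1 and 55.2 in C57BL/6 and 44.8, 53.7, 50.1 and 51.6 in MRL/MpJ. The STR/ort joints were above all others, by 0.87 ± 0.12 over MRL/MpJ (adjusted p = 1.3e-05) and 0.66 ± 0.11 over C57BL/6 (adjusted p = 0.00018, and under 1.5-fold at 0.54 without replicate 4 of STR/ort and at 0.54 with RUVg). At 1-day the excess was 0.77 ± 0.10 and 0.81 ± 0.10 over MRL/MpJ and C57BL/6 in injured joints, and 0.64 ± 0.10 over MRL/MpJ in uninjured ones (0.57 without replicate 1 of STR/ort, 0.53 with housekeeping scaling and 0.58 with RUVg). At 2-weeks it was 0.18 ± 0.10 over MRL/MpJ and -0.09 ± 0.10 over C57BL/6 in injured joints and did not pass.

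Nfkbiz (chr16:55811375-55838899, minus strand), which encodes the nuclear protein IkB-zeta, had its highest group mean in STR/ort before injury, whereas the highest means of C57BL/6 and MRL/MpJ, 24.2 and 23.3 CPM, were those of injured joints at 1-week. At 0-day the STR/ort joints held 47.4, 41.3, 32.7 and 32.2 CPM, the C57BL/6 joints 19.3, 18.0, 19.5 and 19.0 and the MRL/MpJ joints 16.4, 24.1, 22.0 and 20.7. STR/ort lay above both other strains without overlap, by 0.98 ± 0.12 over C57BL/6 (adjusted p = 8.25e-06) and 0.90 ± 0.13 over MRL/MpJ (adjusted p = 2.39e-05). The contralateral STR/ort joints at 1-day held 18.5, 24.0, 26.3, 25.5 and 31.3 CPM, all below 0-day, and the fall of 0.61 ± 0.10 on the log2 scale (adjusted p = 5.22e-06) went under 1.5-fold without replicate 1 or 2 of 0-day (-0.48 and -0.56) or replicate 1 of 1-day (-0.52). At 1-week the difference from 0-day was -0.57 ± 0.11 (adjusted p = 3.27e-05), under the fold limit. It was past that limit with housekeeping scaling (-0.62), without replicate 3 or 4 of 0-day (-0.62 and -0.63) and without replicate 1 or 4 of 1-week (-0.61 and -0.64). The 9 immediate-early genes listed, which respond within minutes to handling, stress or growth factors, moved in the same libraries. Their sum at 0-day was 1122 to 2095 CPM in STR/ort, 156 to 224 in C57BL/6 and 180 to 202 in MRL/MpJ, with 9 of 9 called higher in STR/ort over each other strain. In uninjured STR/ort joints it was 187 to 856 CPM at 1-day, with 9 of 9 called lower than at 0-day. Other marker lists also had called genes. From 0-day to 1-day in uninjured STR/ort joints, 9 of 9 fast muscle markers fell and 6 of 10 macrophage markers rose. At 0-day, 8 of 9 fast muscle markers were higher in STR/ort against C57BL/6, and of 10 macrophage markers 6 were lower and 1 higher. Against MRL/MpJ, 6 of 6 erythroid and 4 of 7 T cell markers were lower. There 4 of 7 synovial fibroblast and 4 of 6 B cell markers were higher. The part of these lists in the Nfkbia and Nfkbiz values was not tested. After injury Nfkbiz passed on adjusted p in STR/ort at 1-day (0.43 ± 0.10, adjusted p = 0.00263), 1-week (0.28 ± 0.10, adjusted p = 0.0318, and 0.0568 with the replicate block) and 2-weeks (0.37 ± 0.12, adjusted p = 0.0295) and in C57BL/6 at 1-day (0.30 ± 0.10, adjusted p = 0.0308), always by less than 1.5-fold, and the interaction tests of Nfkbiz had adjusted p of 0.409 or more. Injured STR/ort joints at 1-day held 30.1 to 40.6 CPM, against 18.4 to 23.2 in MRL/MpJ, a called difference of 0.72 ± 0.10 (0.54 with housekeeping scaling).

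**Figure D5:**
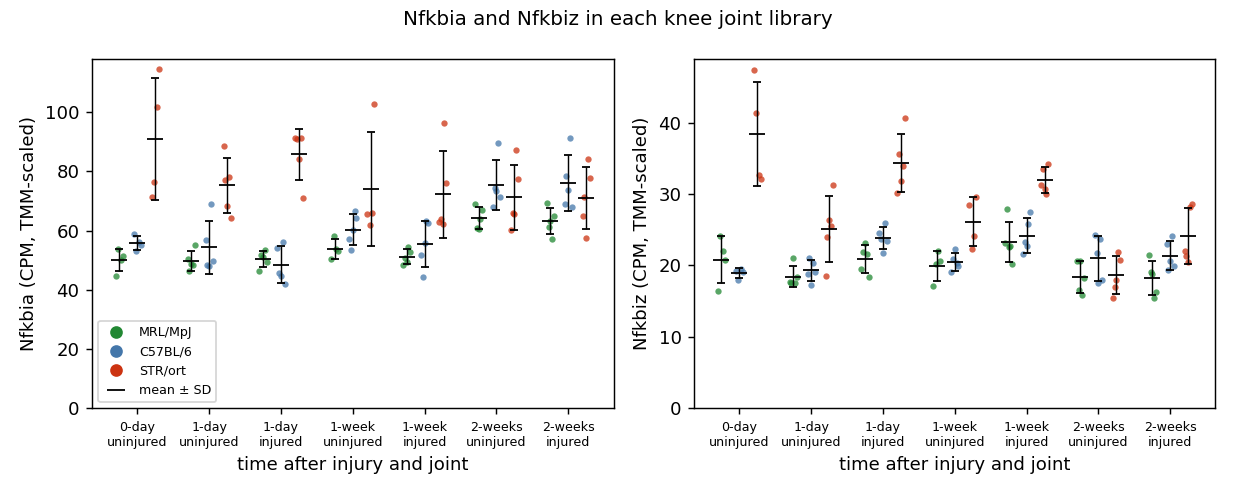
Nfkbia (left) and Nfkbiz (right) levels in CPM (y axis) in each library by time and joint (x axis), with strains as colors and the mean and SD in black. STR/ort stands apart at 0-day, where Nfkbiz is 32.2 to 47.4 CPM against at most 24.1 CPM in the other strains, and at 2-weeks the strains overlap.

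The non-canonical subunits Nfkb2 (chr19:46304320-46312385, plus strand) and Relb (chr7:19606217-19629438, minus strand) differed between injured and uninjured joints at 1-day by less than 1.5-fold. Relb passed on adjusted p in all 3 strains and Nfkb2 in C57BL/6. Relb was 11.7, 14.9, 10.6, 14.3 and 15 CPM in injured and 9.89, 8.02, 10.7, 10.0 and 8.68 in uninjured MRL/MpJ joints. In C57BL/6 it was 14.5, 11.5, 16.0, 18.3 and 11.1 against 11.5, 11.7, 8.48, 9.67 and 8.83, and in STR/ort 16.1, 15.9, 18.6, 16.8 and 15 against 11.9, 12.1, 14.1, 12.8 and 10.7. The groups overlapped in MRL/MpJ and C57BL/6 and not in STR/ort, with log2 differences of 0.51 ± 0.13, 0.52 ± 0.13 and 0.41 ± 0.12 (adjusted p = 0.0164, 0.00376 and 0.0308). The C57BL/6 difference was past 1.5-fold without replicate 5 of injured (0.61, adjusted p = 0.00118) or replicate 2 of uninjured joints (0.59, adjusted p = 0.00231). In the same C57BL/6 comparison 6 of 10 macrophage markers were called higher, and the part of the markers was not tested. Nfkb2 passed on adjusted p at 1-day in C57BL/6 (0.48 ± 0.09, adjusted p = 0.000214, 28.7 to 43.5 CPM in injured and 24.6 to 29.8 in uninjured joints), and gave 0.29 ± 0.09 and 0.23 ± 0.09 in MRL/MpJ and STR/ort (adjusted p = 0.0683 and 0.096). In STR/ort, Relb also passed at 1-week (0.54 ± 0.12, adjusted p = 0.00127), with 20.7, 20.5, 13.2, 15.5 and 17.3 CPM against 12.7, 12.5, 10.9 and 11.6, and at 2-weeks (0.36 ± 0.09, adjusted p = 0.00807), with 13.6 to 15.8 against 10.0 to 12.3. Injured and uninjured joints did not overlap at either time, and both differences were under 1.5-fold, the first reaching 0.62 when replicate 3 of the injured joints was left out. Against MRL/MpJ, the injury effect on Relb at 1-week was larger in STR/ort by 0.59 ± 0.17 (adjusted p = 0.0887). This difference was called without replicate 3 of injured STR/ort joints (0.68, adjusted p = 0.0281) and in 1 fit of all libraries (0.63, adjusted p = 0.026).

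Between strains, Relb in injured joints was higher in STR/ort than in MRL/MpJ at 1-week (0.91 ± 0.11, adjusted p = 6.78e-08) and at 2-weeks (0.61 ± 0.09, adjusted p = 2.98e-06), and higher than in C57BL/6 at 1-week (0.64 ± 0.11, adjusted p = 1.68e-05). The MRL/MpJ joints at 1-week held 7.99 to 9.93 CPM, well under the 13.2 to 20.7 of STR/ort. The difference at 2-weeks went under 1.5-fold without replicate 2 of MRL/MpJ (0.57) or replicate 1 of STR/ort (0.58) and with edgeR's filterByExpr filter on low counts (0.58), and that from C57BL/6 without replicate 1 or 2 of STR/ort (0.57 and 0.58) and with housekeeping scaling (0.47). Nfkb2 was called in STR/ort over MRL/MpJ in injured joints at 1-week (0.62 ± 0.11, with 28.9 to 41.6 CPM against 19.0 to 26.5) and in uninjured joints at 2-weeks (0.64 ± 0.07, with 33.0 to 44.6 against 22.3 to 26.7). Both calls were at the fold limit, the first at 0.56 to 0.57 without replicate 1 or 2 of STR/ort or replicate 3 of MRL/MpJ and at 0.48 with housekeeping scaling, and the second at 0.57 without replicate 5 of STR/ort. Marker lists moved in the same comparisons: in injured STR/ort over MRL/MpJ joints at 1-week, 7 of 7 synovial fibroblast and 7 of 8 cartilage markers were called higher, and 9 of 9 fast muscle, 7 of 10 neutrophil and 7 of 7 T cell markers lower. Over C57BL/6 at 1-week, 5 of 7 synovial fibroblast and 7 of 8 cartilage markers were called higher and 9 of 9 fast muscle markers lower. At 2-weeks over MRL/MpJ, 7 of 8 cartilage markers were called higher in injured joints and 7 in uninjured ones, with 6 and 4 of 7 synovial fibroblast markers. Their part in the Relb and Nfkb2 differences was not tested. Exons of Nfkb2 overlap 299 bases of Psd and 531 bases of the long non-coding RNA AC114539.1 on the other strand. Whether the counting used strand is not given in the sources used here, so reads of these genes could be counted with Nfkb2.

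A wider list of 48 genes of TNF and NF-kB signaling, of which 46 were in the table, was counted in the same way. It too was chosen with earlier results of these data known. After injury at 1-day 3 of 46 were called higher in MRL/MpJ (6.52%, against 2.02% of all genes called), 4 in C57BL/6 (8.7% against 5.6%) and 4 in STR/ort (8.7% against 4.31%), and 0 lower. Bcl3, a nuclear IkB protein, rose in all 3 strains (log2 0.65, 0.81 and 0.72 in MRL/MpJ, C57BL/6 and STR/ort), as did Ier3, an early response gene (0.68, 0.96 and 0.72), and Tnip3, an A20-binding inhibitor (1.96, 1.38 and 1.45, at 0.405 to 2.64 CPM). Sele, the endothelial adhesion molecule E-selectin, rose in STR/ort (1.02 ± 0.19, adjusted p = 0.00032), and Traf1, an adaptor of TNF receptors named here after its value was seen, in C57BL/6 (0.68 ± 0.17, adjusted p = 0.00488). At 1-week 0 were called in MRL/MpJ and C57BL/6, against 3.13% and 5.82% of all genes. In STR/ort at 1-week, where 9.21% of all genes were called, 4 were called higher, led by Ier3 (0.98 ± 0.18) and Sele (0.83 ± 0.17), and 1 lower, the TNF relative Lta, at only 0.124 against 0.729 CPM. At 2-weeks 3 were called higher in STR/ort (4.66% of all genes), led by Ier3 (0.67 ± 0.10) and Sele (0.93 ± 0.19), and 0 in MRL/MpJ (1.16%) and C57BL/6 (2.95%). The median log2 change of the 46 genes lay between -0.07 and 0.10 over these 9 comparisons, against -0.03 to 0.01 for all genes. The marker lists given with the receptors and with Tnfrsf12a moved in the same injury comparisons, and their part in these changes was not tested.

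At 0-day the list gave 3 genes higher and 5 lower in STR/ort than in MRL/MpJ, 3 higher and 1 lower in STR/ort than in C57BL/6, and 1 higher and 1 lower in C57BL/6 than in MRL/MpJ. These are 17.4%, 8.7% and 4.35% of the 46 genes, against 14.8%, 13.8% and 15.9% of all genes, so the first share was near that of all genes and the others lay below it. Bcl3 (1.05 ± 0.12) and Ier3 (1.49 ± 0.24) were higher in STR/ort than in MRL/MpJ, and Tab3, an adaptor of the TAK1 kinase (-0.74 ± 0.08), and Vcam1, a vascular adhesion molecule (-0.78 ± 0.08), were lower. Over C57BL/6, Ier3 (1.67 ± 0.23) and the mitochondrial superoxide dismutase Sod2 (0.73 ± 0.12) were higher in STR/ort and Vcam1 lower (-0.59 ± 0.08). Sele was higher (0.68 ± 0.20) and Ltb, a lymphotoxin subunit, lower (-1.09 ± 0.16) in C57BL/6 than in MRL/MpJ. Of the 9 immediate-early genes, 9 of 9 were called higher in STR/ort over each other strain at 0-day. Their median log2 differences in these libraries were 2.94 over MRL/MpJ and 3.16 over C57BL/6. The other marker lists given with Nfkbiz also differed between these strains at 0-day. The part of these lists in the Bcl3, Ier3 and Sod2 values was not tested.

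Over the 21 group means of log2 CPM, which share libraries, depth and batch and are given with no test, the 9 genes were not of 1 pattern. Relb followed Tnfrsf1a (r = 0.832) and Tnfrsf12a (r = 0.813), and Nfkb2 followed Tnfrsf1a (r = 0.822). Tnf correlated negatively with each of the other 8, with r from -0.518 (Nfkbiz) to -0.114 (Tnfrsf12a). These are values between groups, and among libraries within groups r was 0.4 for Relb and Tnfrsf1a, 0.0633 for Relb and Tnfrsf12a, 0.587 for Nfkb2 and Tnfrsf1a and 0.16 for Tnf and Nfkbiz. Outside the 9, the closest patterns in the whole table were Vmp1 (r = 0.923) and Rcan1 (0.882) for Tnfrsf12a, Ch25h (0.925) and Il4ra (0.914) for Relb, Epb41l1 (0.959) and Gusb (0.957) for Tnfrsf1a, and the class II antigen presentation genes H2-Ab1 (0.95) and H2-Eb1 (0.946) for Tnfrsf1b. For Tnf they were Dmxl2 (0.9) and Adam8 (0.896), for Nfkbiz Plk3 (0.886) and Errfi1 (0.886), and for Nfkbia Ddit4 (0.921) and Rps9 (0.882). Nfkb2 was closest to Srprb (0.936) and Soat1 (0.927), and Tnfaip3 to Ppm1e (0.904) and Bcl7a (0.898). Within the 15 groups of batch 1 the same 18 genes had r of 0.867 to 0.966.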

How the data were processed

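Whole knee joints with traces of soft tissue were profiled by poly(A) RNA-seq in 100 libraries. The authors used TopHat2 (version 2.0.11) to align reads to mm10 and featureCounts (Rsubread package) to assign them to RefSeq genes, and deposited raw counts, which are whole numbers and not normalized. Of 17313 table entries 3 were repeats and were dropped. Requiring 2 or more counts in 5 or more libraries took out 0 genes.

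The test was the quasi-likelihood test of edgeR (4.0.16, under R 4.3.3) with TMM factors and Benjamini-Hochberg adjustment over all genes, with thresholds of 0.05 and 1.5-fold. The groups of each time point entered 1 fit, and comparisons over time used 1 fit of the 70 libraries of batch 1. A standard error is the log2 change divided by the root of F. The test was tried on simulated data before use. Alternatives were RLE size factors, scaling by 25 housekeeping genes, RUVg with 1 factor from the same genes, filterByExpr, DESeq2 (version 1.42.0), fits of the compared groups or of all libraries, a replicate block, adjusted p alone, and each library left out. The study used RUVSeq, whose number of factors is not given in the sources used here, and so RUVg was not the main setting.

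Replicate numbers pair the joints at 2-weeks, where the labels give both joints of a number the same identifier (correlation of deviations -0.161 to 0.262). For joints of the same number at 1-week it was 0.102 to 0.231 in STR/ort (4 pairs), 0.0454 to 0.0973 in MRL/MpJ and -0.0224 to 0.269 in C57BL/6. Joints of different numbers were not correlated for reference, so whether numbers pair the joints at 1-day and 1-week is not known. The 9 genes and all lists were chosen with earlier results of these data known. All 9 genes are named. From the wider list those named are at most 2 called genes with the smallest adjusted p per direction and comparison and genes called in all 3 strains at 1 time, and for patterns the 2 genes of highest correlation.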

Additional observations from a re-analysis of the deposited data

Results flagged for a closer look

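In each of the 21 groups, the highest and lowest library of each gene was set against the others with Dixon's test, and 9 of 189 tests picked out a library, where chance gives about 1 in 20. In all 9 cases the library was the highest of its group. Tnfrsf12a was 25.7 CPM in replicate 2 of the uninjured C57BL/6 joints at 1-week, where the next was 11.8, and the calls that rest on this library are given with the Tnfrsf12a results. Nfkbia was 103 CPM in replicate 4 of the uninjured STR/ort joints at 1-week, where the next was 65.8. Tnf was 3.40 CPM in replicate 2 of the uninjured C57BL/6 joints at 1-day, with the next at 2.17. Tnfrsf1a was 87.7 CPM in replicate 2 of the injured MRL/MpJ joints at 1-day, with the next at 78.3. Tnfaip3 was 23.0 CPM in replicate 4 of the uninjured C57BL/6 joints at 1-week (next 18.2) and 23.3 CPM in replicate 2 of the injured C57BL/6 joints at 2-weeks (next 18.8). Nfkbiz was 21 CPM in replicate 3 of the uninjured MRL/MpJ joints at 1-day (next 18.3). Nfkb2 was 31.9 CPM in replicate 5 of the injured MRL/MpJ joints at 1-day (next 26.6) and 29.8 CPM in replicate 4 of the uninjured C57BL/6 joints at 1-day (next 25). The causes were not tested.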

How the results depend on the processing

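None of the 54 called differences, and none of the 84 that passed on adjusted p alone, changed its sign under the alternatives run, while 94 of the 294 that did not pass did under at least 1. On adjusted p alone, without the fold limit, the number of gene and comparison pairs passed was 14 in place of 8 at 0-day, 17 in place of 4 for injury at 1-day, 3 in place of 1 at 1-week and 3 in place of 0 at 2-weeks, 48 in place of 22 between strains in injured joints, 40 in place of 14 in uninjured joints, 5 in place of 2 for uninjured joints against 0-day and 8 in place of 3 for injured joints at 1-week against 1-day. Interactions of strain and injury, 0 in the reported test, were 1 with DESeq2, 2 with 1 fit of all libraries (Tnfrsf12a, STR/ort against C57BL/6, 1.39 with an adjusted p of 0.00884, and Relb, STR/ort against MRL/MpJ, 0.63 with an adjusted p of 0.026, both at 1-week) and 1 with the replicate block. The block changed no other call among the 9 genes. On adjusted p alone it also moved Nfkb2 in MRL/MpJ at 1-day (0.0362 in place of 0.0683) and the interaction of Nfkbia, STR/ort against C57BL/6, at 1-day (0.0299 in place of 0.185), beside the 1-week values given with the injury results. Scaling by housekeeping genes moved the median of all genes by -0.182 to 0.147 on the log2 scale from its value in the reported test, by over 0.1 in 8 of 48 comparisons, and gave 15 calls in place of 22 between strains in injured joints and 4 in place of 2 against 0-day. In injured joints it took under 1.5-fold Tnfrsf1a (0.46) and Nfkbiz (0.54) in STR/ort over MRL/MpJ and Tnf (0.57) and Tnfrsf12a (0.58) in STR/ort over C57BL/6 at 1-day, and Nfkb2 (0.48) over MRL/MpJ and Tnfrsf1a (0.49) and Relb (0.47) over C57BL/6 at 1-week. RUVg gave 11 calls in place of 14 between strains in uninjured joints, 7 in place of 8 at 0-day, and 1 call in place of 3 for injured joints at 1-week against 1-day, with Tnfrsf12a at 0.47 and an adjusted p of 0.07. The causes were not tested. With each library left out, the counts ran from 6 to 9 at 0-day, 4 to 5 for injury at 1-day, 1 to 2 at 1-week and 0 to 0 at 2-weeks, 0 to 1 for interactions, 20 to 23 and 12 to 15 between strains in injured and uninjured joints, and 1 to 4 for each of the comparisons over time. A single fit of all libraries was not run for the comparisons over time, because it would join the 2 batches.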
